A study of Mus musculus with 6 samples.

Results

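The tricarboxylic acid (TCA) cycle enzymes described here are encoded by 9 mouse genes, Cs, Idh3a, Idh3b, Idh3g, Ogdh, Dlst, Suclg1, Fh1 and Mdh2. All probe sets annotated to exactly 1 gene, that gene being 1 of the 9, were taken, which gave 17 of the 22626 probe sets on the arrays that were not array controls. Of these genes 6 had more than 1 probe set and 3 had 1, and probe sets of the same gene report on the same transcripts and are not independent. Liver RNA at postnatal day 9 (P9) was measured on 6 GeneChip arrays, 3 transgenic and 3 wild type, and pooling of animals is not mentioned. The 3 transgenic mice carried a conditional allele that overexpresses Tcfeb (now Tfeb) and the Alb-Cre transgene, whose albumin promoter drives Cre recombinase in the hepatocyte lineage. The 3 other mice are labelled wild type, and whether they carried the conditional allele or Cre is not given in the sources used here. Strain and sex are not given there either. The labels call the arrays biological replicates.

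The TCA cycle runs in the mitochondrial matrix, oxidises acetyl-CoA to carbon dioxide and passes the electrons to the respiratory chain as NADH and FADH2. In liver its intermediates also leave the cycle as precursors of glucose, fatty acids and amino acids and are replenished from pyruvate and amino acids. Citrate synthase (Cs) starts the cycle, and the NAD-dependent isocitrate dehydrogenase (a catalytic alpha subunit, Idh3a, with beta and gamma subunits, Idh3b and Idh3g) and the 2-oxoglutarate dehydrogenase complex (E1, Ogdh, and the E2 succinyltransferase, Dlst) release carbon dioxide. Succinyl-CoA ligase (alpha subunit, Suclg1), fumarase (Fh1) and mitochondrial malate dehydrogenase (Mdh2) belong to the segment that returns to oxaloacetate. TFEB is a transcription factor of lysosomal and autophagy genes that binds a CACGTG core.

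Promoter windows from RefSeq (GRCm38.p6, 250 bases before to 50 bases after each annotated gene start) are shown for Ogdh and Mdh2, because among the 8 member genes with a window these held the motifs searched. Idh3a had no window in the table. The motifs were CACGTG (the TFEB core), the extended CLEAR element around that core, TNAAGGTCA (the site of oestrogen-related receptors) and the palindromic NRF1 site. CTCGCGAG and TGACGTCA, the cyclic AMP response element, were added after the windows had been read, and Mdh2 held only these. Both strands were searched, every match to the CLEAR element also matches CACGTG, and capitals mark every match.
Ogdh, chr11:6291920-6292219, plus strand: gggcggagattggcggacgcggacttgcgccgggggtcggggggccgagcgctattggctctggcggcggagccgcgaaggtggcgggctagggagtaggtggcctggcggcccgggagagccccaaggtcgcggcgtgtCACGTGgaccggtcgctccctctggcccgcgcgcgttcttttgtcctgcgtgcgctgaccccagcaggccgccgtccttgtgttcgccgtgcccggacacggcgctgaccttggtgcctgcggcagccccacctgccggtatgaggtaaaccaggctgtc
Ogdh, chr11:6292308-6292607, plus strand: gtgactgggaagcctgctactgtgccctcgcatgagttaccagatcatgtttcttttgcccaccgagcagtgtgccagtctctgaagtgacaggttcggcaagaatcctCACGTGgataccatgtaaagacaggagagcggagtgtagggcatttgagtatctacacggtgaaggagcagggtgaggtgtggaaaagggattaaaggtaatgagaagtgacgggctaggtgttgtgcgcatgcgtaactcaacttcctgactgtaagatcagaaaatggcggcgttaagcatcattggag
Ogdh, chr11:6291347-6291646, plus strand: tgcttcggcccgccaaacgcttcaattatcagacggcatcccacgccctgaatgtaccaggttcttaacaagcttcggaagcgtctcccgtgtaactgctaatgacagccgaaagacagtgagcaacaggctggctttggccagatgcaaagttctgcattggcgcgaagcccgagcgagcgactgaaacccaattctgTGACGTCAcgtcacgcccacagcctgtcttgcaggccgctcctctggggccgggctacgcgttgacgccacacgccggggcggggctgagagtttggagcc
Mdh2, chr5:135778399-135778698, plus strand: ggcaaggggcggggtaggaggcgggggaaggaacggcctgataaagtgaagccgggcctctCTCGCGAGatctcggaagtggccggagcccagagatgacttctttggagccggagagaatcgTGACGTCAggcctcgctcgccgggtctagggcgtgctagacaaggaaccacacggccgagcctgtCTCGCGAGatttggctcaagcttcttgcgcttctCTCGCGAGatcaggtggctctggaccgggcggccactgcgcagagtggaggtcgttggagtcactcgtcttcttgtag
CACGTG lay 110 and 141 bases before 2 of the annotated Ogdh starts, and the match in the second of those windows was shared by an overlapping window of a start nearby. Ogdh was the only 1 of 8 member genes with CACGTG, against 8.09% of 27025 genes with windows. It was also the only member with several windows, which gives more places for a match, and that share is not matched for the number of windows. No member window held the CLEAR element, TNAAGGTCA or the NRF1 site, which were present in windows of 0.370%, 1.43% and 5.19% of genes. CTCGCGAG stood 3 times in the Mdh2 window, beginning 189, 62 and 28 bases before the start, and is found in windows of 1.04% of genes. TGACGTCA lay in windows of Ogdh and Mdh2, 2 of 8 member genes, against 2.03% of all genes. CTCGCGAG and TGACGTCA were picked from the members' own windows, so setting them beside the shares of all genes cannot show an enrichment. A match describes these letters in these windows and no binding was measured here.

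Values are log2 expression as deposited, given per array in the order of replicates 1, 2 and 3. Differences are transgenic minus wild type on the log2 scale, and SE is the standard error from limma fitted to all probe sets, and adjusted p is that of limma with Benjamini-Hochberg adjustment over all 22626 probe sets, with a threshold of 0.05. Pearson's r over all probe sets was 0.994 to 0.997 between arrays of a group and 0.977 to 0.979 between groups. The only Tfeb probe set read 6.50 ± 0.13 in transgenic and 6.71 ± 0.18 in wild-type liver (SD, n = 3 each; difference -0.21, limma adjusted p = 0.178), and whether it covers the transgene is not given in the sources used here. Transgenic replicate 1 had a male pattern (brightest Xist probe set 5.58, Eif2s3y 9.32), and the other 5 arrays a female one (Xist 13.03 to 13.19, Eif2s3y 3.06 to 3.43). Spiked bacterial control RNAs read lower on every transgenic array than on any wild-type array at 14 of 14 probe sets (median difference -0.37). Scaling to them would add 0.37 to each difference and move the median over all probe sets to 0.33, against -0.04 as deposited, so differences below are relative to the deposited scale.

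TCA cycle enzyme transcripts were higher in transgenic liver for most members. Of 17 probe sets, 14 rose and 0 fell, with 3 not past the threshold, whereas over all 22626 probe sets 18.1% rose and 17.3% fell, 35.4% in either direction. The members were chosen with earlier results of these data known, so these shares describe the 9 genes and are no test of the cycle. Of 11 probe sets of other TCA cycle genes, 3 rose and 1 fell. The median difference of the members was 0.58, against -0.04 over all probe sets. The 3 transgenic values lay above all 3 wild-type values at 15 of the 17, compared with 24.6% of all probe sets. None of the members had all transgenic values below all wild-type values, as 25.9% of all probe sets did. Of 9 genes, 8 had at least 1 probe set that rose, 6 had every probe set rise, and Suclg1 had none. The shares of all genes that match these counts were not computed. In a fit with only the brightest probe set of each gene, 8 of the 9 rose, against 19.9% of 12393 genes. Among the 10% of probe sets with the highest mean, 9 of 11 members rose, while of all 2263 probe sets there 32.4% rose and 24% fell, with a median difference of 0.09. In whole liver a change in the share of a cell type and a change in RNA per cell cannot be told apart.

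**Figure D1:**
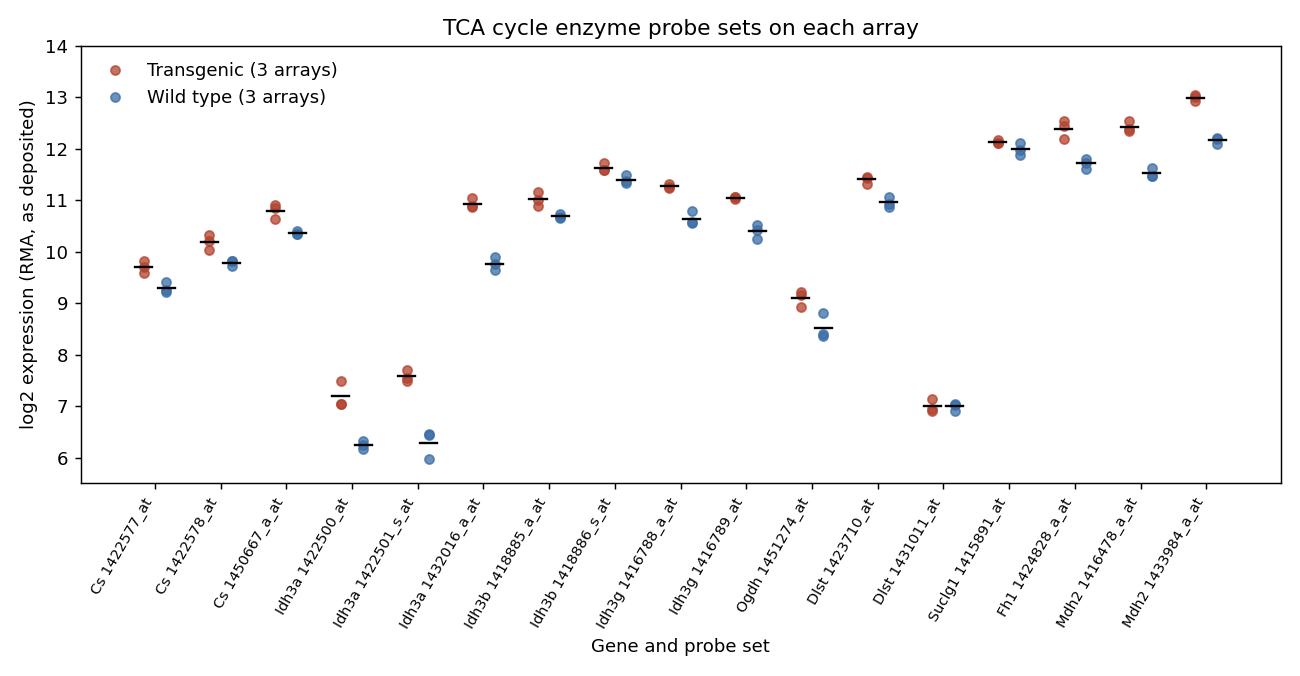
Log2 expression (vertical axis) of the 17 TCA cycle enzyme probe sets (horizontal axis) on each array, transgenic on the left of each pair and wild type on the right, with bars at the means of 3 arrays. The groups overlap at Suclg1 and at Dlst 1431011_at and are separate at the other 15 probe sets.

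Cs, which condenses acetyl-CoA with oxaloacetate, rose on all 3 of its probe sets, by 0.40 to 0.44. Probe set 1450667_a_at read 10.90, 10.86 and 10.64 on the transgenic arrays, against 10.34, 10.40 and 10.35 on the wild-type arrays. The lowest transgenic value lay above the highest wild-type value. Its difference was 0.44 (SE 0.09, limma adjusted p = 0.00606), a 1.35-fold higher level with a 95% interval of 1.18 to 1.55. The other probe sets, 1422577_at and 1422578_at, differed by 0.41 and 0.40, both with a limma adjusted p of 0.0103. Over all probe sets, 2247 had a larger difference than 1450667_a_at.

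Idh3a, the catalytic alpha subunit of isocitrate dehydrogenase, rose more than any other member. Its brightest probe set, 1432016_a_at, read 10.89, 11.04 and 10.86 on the transgenic arrays, against 9.64, 9.77 and 9.90 on the wild-type arrays. The spread within each group was small beside the gap between them. The difference was 1.16 (SE 0.09, limma adjusted p = 7.1e-05), a 2.24-fold higher level (95% interval 1.93 to 2.59). Probe set 1422501_s_at, whose suffix marks probes that can match transcripts of several genes, read 7.55, 7.71 and 7.49 on the transgenic arrays, against 5.98, 6.46 and 6.43 on the wild-type arrays. Probe set 1422500_at read 7.04, 7.48 and 7.04 on the transgenic arrays, against 6.17, 6.25 and 6.32 on the wild-type arrays. Both were dimmer than 1432016_a_at, and their differences were 1.29 (SE 0.13) and 0.94 (SE 0.13). The number of all probe sets with a larger difference was 384 for 1432016_a_at, 320 for 1422501_s_at and 580 for 1422500_at.

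The partner subunits of the same enzyme had smaller differences. Idh3g, the gamma subunit, encoded on the X chromosome, read 11.25, 11.32 and 11.26 with 1416788_a_at on the transgenic arrays, against 10.79, 10.56 and 10.58 on the wild-type arrays. The groups were separate, and the transgenic array with the male pattern, replicate 1, differed from the other transgenic arrays by less than the gap to the wild-type arrays. The differences were 0.63 (SE 0.08, limma adjusted p = 0.000867) on this probe set and 0.65 (SE 0.08, limma adjusted p = 0.000747) on 1416789_at, which read 11.06, 11.07 and 11.03 on the transgenic arrays, against 10.51, 10.43 and 10.26 on the wild-type arrays. Idh3b, the beta subunit, read 11.60, 11.72 and 11.58 with 1418886_s_at on the transgenic arrays, against 11.50, 11.38 and 11.33 on the wild-type arrays. The suffix of this probe set also marks probes that can match transcripts of several genes. The groups were separate but close, and the difference of 0.23 (SE 0.08, 95% interval 0.05 to 0.41) did not pass the threshold (limma adjusted p = 0.052). It passed without wild-type replicate 1 (limma adjusted p = 0.0334), which was the only 1 of the 6 fits with an array left out where it did. It also passed with the brightest probe set per gene (0.0445), without the 40% dimmest probe sets (0.0314) and with trend and robust options (0.0181). The same held with array weights (0.0254), with scaling to the bacterial controls (0.000655) and for the mean of the Idh3b probe sets (0.0211). It did not pass with median centring, cyclic loess or a term for the replicate number. The other Idh3b probe set, 1418885_a_at, read 10.89, 11.16 and 11.002 on the transgenic arrays, against 10.74, 10.67 and 10.66 on the wild-type arrays. It rose by 0.33 (SE 0.08, limma adjusted p = 0.0197). That call did not hold with transgenic array 2 (adjusted p = 0.0647) or 3 (0.0512) left out, with wild-type array 2 (0.06) or 3 (0.056) left out, or with cyclic loess normalization (0.0657).

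Idh3a was also set against its partner subunits within each array. This difference, Idh3a minus the mean of Idh3b and Idh3g, each by its brightest probe set, was -0.53, -0.47 and -0.56 in transgenic livers, against -1.51, -1.20 and -1.05 in wild-type livers. All 3 transgenic values lay above all wild-type values. The shift was 0.73, or 1.66-fold, with an exact two-sided permutation p of 0.1, the smallest that 3 against 3 arrays can give (0.167 adjusted over the 5 pairs compared). A shift within the array is not altered by scaling, and only the shift is read here because levels of different probe sets are not comparable. The Idh3b probe set used, 1418886_s_at, has the suffix of probes that can match several genes.

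The E1 and E2 subunits of the 2-oxoglutarate dehydrogenase complex each had a probe set that rose. Ogdh, the E1 subunit that decarboxylates 2-oxoglutarate, read 8.93, 9.15 and 9.21 on the transgenic arrays, against 8.80, 8.41 and 8.36 on the wild-type arrays. Wild-type replicate 1 was closest to the transgenic arrays and widened the spread. The difference was 0.58 (SE 0.13, limma adjusted p = 0.0116). Dlst, the E2 subunit that carries the lipoyl group, read 11.32, 11.45 and 11.44 with 1423710_at on the transgenic arrays, against 11.06, 10.88 and 10.93 on the wild-type arrays, a difference of 0.45 (SE 0.08, limma adjusted p = 0.00391). The second Dlst probe set, 1431011_at, was dimmer, with 10643 of all probe sets higher in mean. It showed no separation, at 6.91, 7.13 and 6.93 on the transgenic arrays, against 7.04, 7.03 and 6.91 on the wild-type arrays. Its 95% interval was -0.20 to 0.20, below that of 1423710_at (0.26 to 0.63), so the Dlst probe sets disagreed. Dlst minus Ogdh within the array averaged 2.31 ± 0.08 in transgenic and 2.43 ± 0.16 in wild-type livers (SD, n = 3 each), and this shift of -0.13 had an exact permutation p of 0.3. With wild-type array 1 left out the shift was -0.21, and with wild-type array 3 left out -0.059. Averaging all probe sets of each gene gave -0.35, since the dimmer Dlst probe set then counts as much as the brighter one.

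Suclg1, the alpha subunit shared by both succinyl-CoA ligases, was the member with the smallest difference on its brightest probe set. It read 12.12, 12.18 and 12.11 on the transgenic arrays, against 11.97, 12.11 and 11.88 on the wild-type arrays. Wild-type replicate 2 reached the transgenic range. The difference of 0.15 (SE 0.08, limma adjusted p = 0.187) had a 95% interval of -0.04 to 0.33, which leaves room for a rise of up to 1.26-fold. The difference was 0.09 with wild-type array 3 left out, 0.07 with cyclic loess (limma adjusted p = 0.535) and 0.52 with scaling to the bacterial controls (limma adjusted p = 0.00181). Its partner Suclg2, the beta subunit of the GTP-forming ligase, fell by 0.40 (SE 0.09, limma adjusted p = 0.0125), a call lost with scaling to the bacterial controls (difference -0.03, adjusted p = 0.839). The within-array difference of Suclg1 minus Suclg2 averaged 2.69 ± 0.18 in transgenic and 2.14 ± 0.12 in wild-type livers (SD, n = 3 each; exact permutation p = 0.1, the smallest possible). Against Sucla2, the beta subunit of the ATP-forming ligase, the average was 0.32 ± 0.12 in transgenic and 0.33 ± 0.17 in wild-type livers (SD, n = 3 each; exact permutation p = 0.9).

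**Figure D2:**
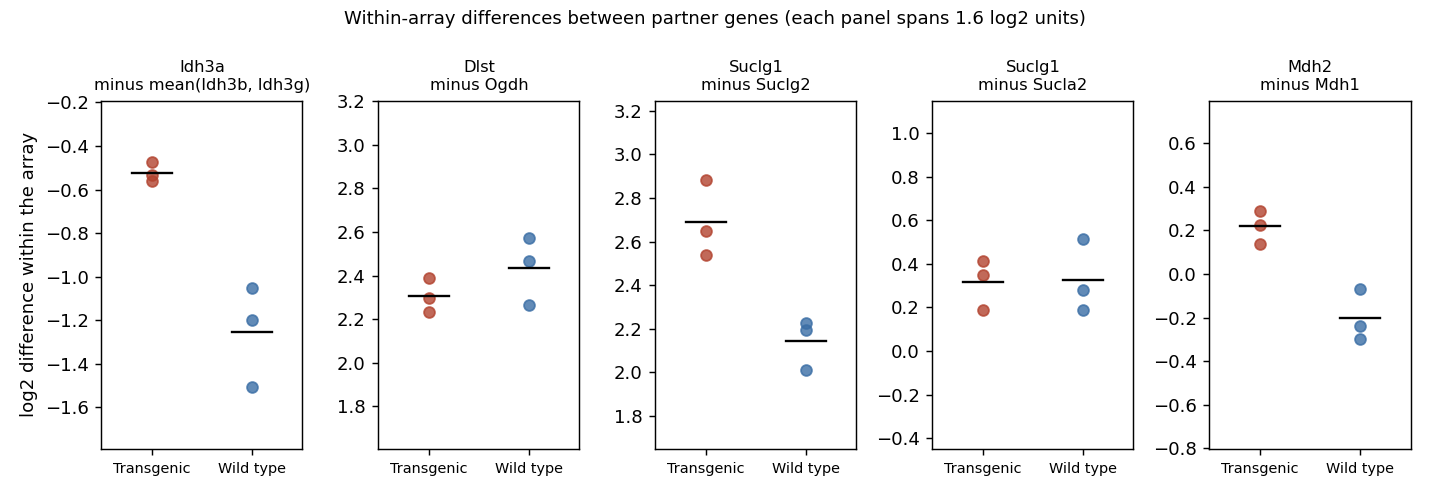
Within-array log2 differences between partner genes (vertical axes, each spanning the same number of units) for 5 pairs, transgenic on the left and wild type on the right, with 1 point per array and bars at the means. The groups are separate for Idh3a, Suclg1 minus Suclg2 and Mdh2, and overlap for Dlst minus Ogdh and Suclg1 minus Sucla2.

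Fh1, fumarase, which hydrates fumarate to malate, read 12.19, 12.54 and 12.45 on the transgenic arrays, against 11.81, 11.73 and 11.62 on the wild-type arrays. Every transgenic array was higher than every wild-type array, and the difference was 0.67 (SE 0.10, limma adjusted p = 0.00201), or 1.6-fold (95% interval 1.35 to 1.89). Mdh2, which regenerates oxaloacetate, had the next largest rise after Idh3a. Its probe set 1433984_a_at read 12.93, 13.01 and 13.04 on the transgenic arrays, against 12.21, 12.10 and 12.19 on the wild-type arrays. The difference was 0.83 (SE 0.07, limma adjusted p = 0.000104), or 1.78-fold. Probe set 1416478_a_at read 12.38, 12.53 and 12.34 on the transgenic arrays, against 11.63, 11.48 and 11.47 on the wild-type arrays, a difference of 0.89 (SE 0.08). Both Mdh2 probe sets thus kept a wide gap between the groups. Mdh2 minus its cytosolic counterpart Mdh1 averaged 0.22 ± 0.08 in transgenic and -0.20 ± 0.12 in wild-type livers (SD, n = 3 each; exact permutation p = 0.1, the smallest possible, 0.167 adjusted over 5 pairs).

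**Figure D3:**
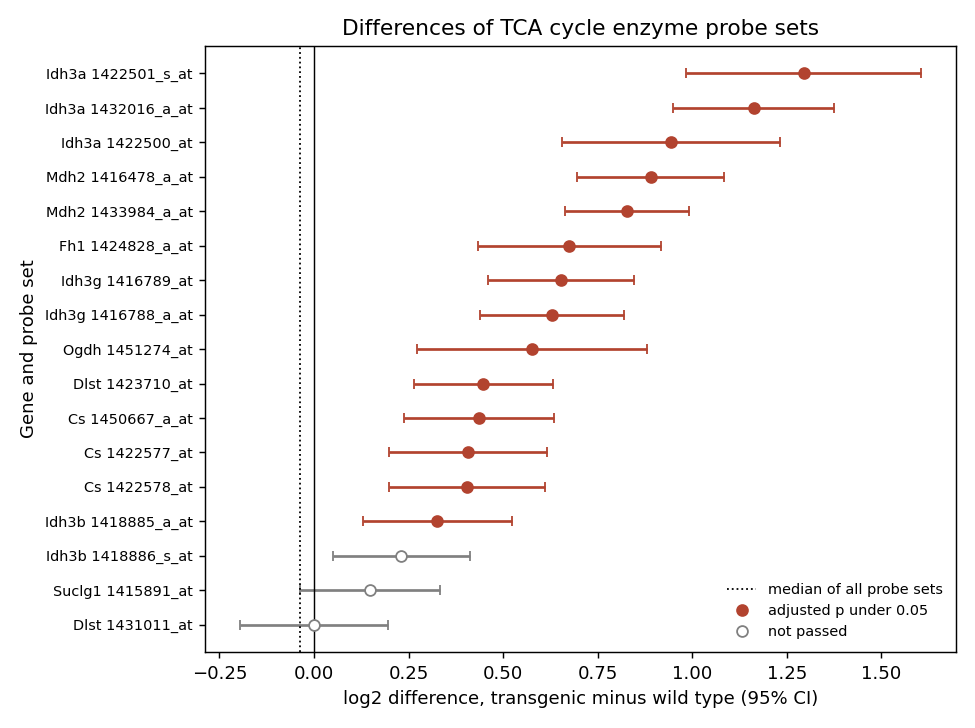
Log2 differences, transgenic minus wild type, of the 17 probe sets (points) with 95% intervals of the limma fit, filled where the adjusted p was under 0.05. Idh3a lies highest at 0.94 to 1.29, and the 3 open points at the bottom are Idh3b 1418886_s_at, Suclg1 and Dlst 1431011_at.

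Ordered by the brightest probe set of each gene, the differences ran from Idh3a (1.16) through Mdh2 (0.83), Fh1 (0.67), Idh3g (0.63), Ogdh (0.58), Dlst (0.45), Cs (0.44) and Idh3b (0.23) to Suclg1 (0.15). The 95% interval of Idh3a lay above those of the 7 genes after Mdh2 and overlapped that of Mdh2. Intervals of neighbours further down the order overlapped. SDs within a group were 0.02 to 0.27 over the 17 probe sets. Transgenic replicate 2 was the highest of its group at 13 of 17 probe sets and the lowest at 0. Without it 13 members rose, beside 13.3% of all probe sets, and the median difference of the members was 0.55. Leaving out transgenic replicate 1, the array with the male pattern, left 14 members higher.

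The likeness of other genes to Idh3a 1432016_a_at over the 6 arrays was measured by the Euclidean distance of values centred on each probe set's mean, over 12392 other genes by their brightest probe set. With 2 groups this distance depends largely on the size of the group difference. The nearest genes outside the 9 were Mrs2, a mitochondrial magnesium channel (distance 0.172), Gars, glycyl-tRNA synthetase (0.185), Psmd8, a proteasome regulatory subunit (0.194), Samd4, an RNA-binding protein (0.199), and Plekha1, a phosphoinositide-binding adaptor (0.208). Their differences were 1.08 to 1.21. Mdh2 was the nearest member (0.488), with 193 other genes nearer than it, and Suclg1 the farthest (1.28).

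Other TCA cycle genes included some that rose and 1 that fell. Of 10 listed, 8 were measured with 11 probe sets, of which 3 rose (27.3%) and 1 fell (9.1%), at a median of 0.16. Over all probe sets 18.1% rose and 17.3% fell, the shares to set beside this list and those below. Idh2, the NADP-dependent mitochondrial isocitrate dehydrogenase, rose by 0.79 (SE 0.07, limma adjusted p = 0.000145), and Dld, the E3 subunit shared by the 2-oxoacid dehydrogenases, by 0.37. Sdhd, a membrane subunit of succinate dehydrogenase, rose by 0.25 (limma adjusted p = 0.0282). That call did not hold with transgenic array 2 (adjusted p = 0.0913) or 3 (0.0848) left out, with wild-type array 1 (0.0542) or 3 (0.0829) left out, or with median centring (0.053) or cyclic loess (0.104). Suclg2 was the 1 that fell. The other 6 succinate dehydrogenase probe sets and that of Sucla2 did not pass, with differences of 0.08 to 0.20. With scaling to the bacterial controls 10 of the 11 rose and 0 fell. Under that scaling 57.3% of all probe sets rose, which also stands beside the scaled counts of the lists below.

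Pyruvate entry genes included 7 of 13 probe sets that rose (53.8%) and 1 that fell (7.7%), at a median of 0.37. Pdha1 and Dlat, the E1 alpha and E2 subunits of pyruvate dehydrogenase, rose by 0.48 (SE 0.07) and 0.57 (SE 0.07), and Pdk4, a kinase that inhibits the complex, rose by 1.20 (SE 0.26, limma adjusted p = 0.00892). Pdk1, another of these kinases, fell by 0.54 (limma adjusted p = 0.0303) with overlapping groups. That call did not hold with transgenic array 2 (adjusted p = 0.0953) or 3 (0.1) left out, with wild-type array 2 (0.0959) or 3 (0.0809) left out, with all Pdk1 probe sets averaged (0.058), or with scaling to the bacterial controls (0.396). That scaling gave 10 of the 13 higher and 0 lower, at a median of 0.74. In those 4 fits with an array left out 0 of the 13 fell, and 2 fell with transgenic array 1 left out and 3 with wild-type array 1 left out.

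Genes that feed or drain the cycle went mostly the other way. Of 20 probe sets for anaplerosis and exits, 11 fell (55%, against 17.3% of all probe sets) and 4 rose (20%, against 18.1%), at a median of -0.34. Pcx, pyruvate carboxylase, fell by 1.34 (SE 0.10, limma adjusted p = 5.2e-05), Pck1, cytosolic phosphoenolpyruvate carboxykinase, fell by 1.06, and Pcca, the alpha subunit of propionyl-CoA carboxylase, fell by 0.81. Me2, mitochondrial malic enzyme, rose by 0.74. Only 2 rose when transgenic array 2, wild-type array 1 or wild-type array 2 was left out. Relatives of the 2-oxoglutarate dehydrogenase complex and lipoylation genes had 4 of 8 probe sets lower (50%) and 0 higher, at a median of -0.35. The largest fall was that of Dbt, the E2 subunit of the branched-chain complex (-1.50, SE 0.08). Bckdhb fell by 0.75, the octanoyl transferase gene Lipt2 fell by 0.73 and the glycine cleavage protein gene Gcsh fell by 0.43. With scaling to the bacterial controls the calls of Lipt2 (difference -0.36, limma adjusted p = 0.0661) and Gcsh (-0.06, adjusted p = 0.631) did not hold. With wild-type array 1 left out 1 of the 8 rose. With scaling to the bacterial controls these list medians changed sign to 0.03 and 0.02, with 5 higher and 5 lower for anaplerosis and exits and 3 higher and 2 lower for the relatives.

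Cytosolic counterparts were split, with 6 of 16 probe sets higher and 3 lower at a median of 0.26. These were 37.5% and 18.8%, against 18.1% and 17.3% of all probe sets, so the share that fell was near that of all. Me1, cytosolic malic enzyme, rose by 1.48 (SE 0.07), Mdh1 by 0.41 on the brightest of its 4 probe sets, of which 2 rose and 2 did not pass, and the ATP citrate lyase gene Acly by 0.41 (limma adjusted p = 0.0549 without transgenic replicate 2), while Idh1 fell by 0.44. With transgenic array 2 left out 3 were higher and 1 lower, and with wild-type array 2 or 3 left out 1 was lower. With scaling to the bacterial controls 11 were higher and 0 lower, beside 57.3% of all probe sets higher, and Idh1 did not pass (difference -0.07). The respiratory chain takes up the electrons of NADH and FADH2 from the cycle, and its subunits were listed together with those of ATP synthase. These subunits had 82 of 133 probe sets higher (61.7%) and 3 lower (2.3%) at a median of 0.29. They had 125 higher and 0 lower at a median of 0.66 with scaling to the bacterial controls, and 64 higher and 3 lower with cyclic loess. When transgenic array 3, wild-type array 1 or wild-type array 2 was left out, 1 was lower. Ndufs7 (0.73), Cycs (0.72), Atp5o (0.66) and Atp5g1 (0.60) had the largest differences by the brightest probe set. The transcriptional coactivator Ppargc1a, a regulator of mitochondrial genes, rose by 3.02 (SE 0.19) on its brightest probe set, and Esrra, the oestrogen-related receptor alpha gene, rose by 0.82 (SE 0.11).

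**Figure D4:**
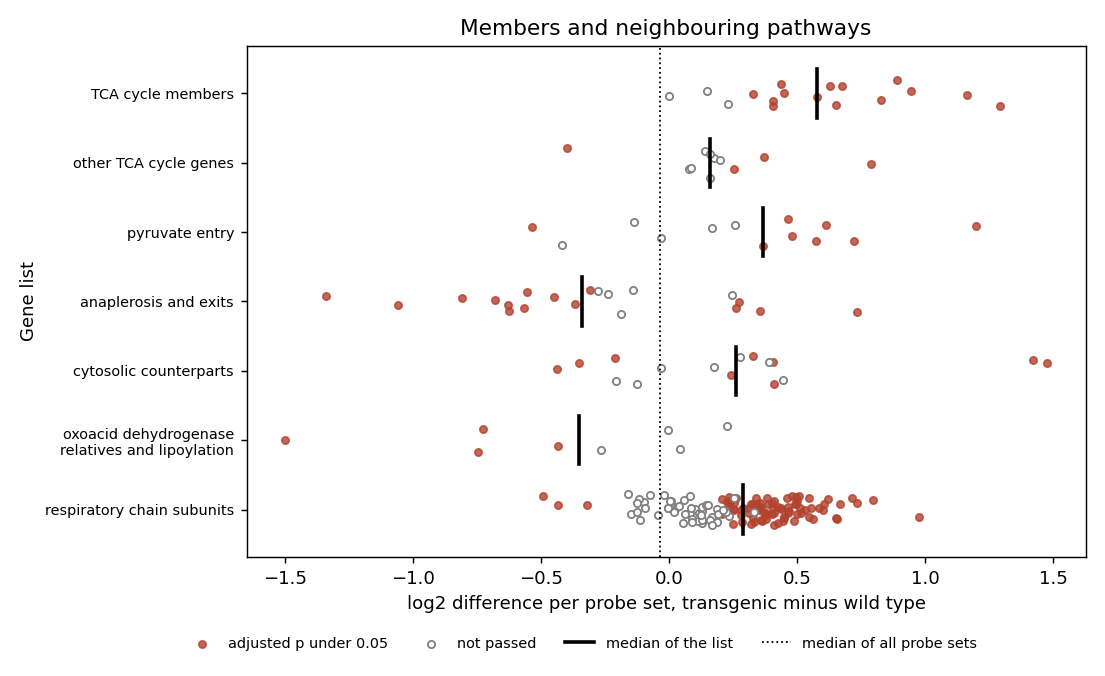
Log2 differences, transgenic minus wild type (horizontal axis), of every probe set (points, spread vertically for sight) of the TCA cycle members and of 6 neighbouring gene lists, filled where the adjusted p was under 0.05, with bars at the list medians. The members' median is 0.58, those of anaplerosis and exits and of the oxoacid dehydrogenase relatives are below 0, and the dotted line is the median over all probe sets.

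Markers of liver cell types also differed between the groups. Over all probe sets 18.1% were higher and 17.3% lower. Hepatocyte markers fell at 11 of 14 probe sets, and their mean over genes was 12.41 to 12.48 on the transgenic arrays, against 13.08 to 13.13 on the wild-type arrays. By the brightest probe set 7 of the 9 genes fell, from Apoa1 (-0.19) to Apoc3 (-1.44). Alb (0.0007, limma adjusted p = 0.994) and Ttr (-0.03, limma adjusted p = 0.703) did not pass. Granulocyte markers fell at 6 of 7 (array means 7.78 to 8.63 in transgenic, 9.51 to 10.64 in wild type), lymphoid markers at 4 of 5 (5.63 to 6.003 in transgenic, 6.55 to 6.68 in wild type) and macrophage markers at 4 of 8 (10.58 to 10.95 in transgenic, 10.91 to 11.27 in wild type). The macrophage array means of the groups overlapped. Of 6 macrophage genes, 2 fell by the brightest probe set, Marco (-0.56) and Adgre1 (-0.56), while the others, among them Cd5l (0.01), did not pass. Cholangiocyte markers rose at 5 of 6 (8.19 to 8.51 in transgenic, 6.02 to 6.97 in wild type) and erythroid markers at 5 of 11 (8.24 to 8.41 in transgenic, 7.81 to 7.997 in wild type). Among cholangiocyte markers Cldn4 rose most (4.61) and Krt19 did not pass (-0.27). By the brightest probe set 4 of 6 erythroid genes rose, while Alas2 (-0.28) and Tfrc (-0.32) did not pass. Endothelial markers had 1 of 7 higher and 3 lower (8.83 to 8.96 in transgenic, 9.01 to 9.07 in wild type), and stellate markers 0 of 8 higher and 2 lower (8.88 to 9.09 in transgenic, 9.21 to 9.24 in wild type), whose median over probe sets was 0.04 although the array means were lower. No marker reads 0 on this scale. With scaling to the bacterial controls 57.3% of all probe sets were higher. Hepatocyte markers then had 3 higher and 4 lower, endothelial markers 4 and 0, and stellate markers 5 and 2. Under that scaling macrophage markers had 1 higher and 0 lower, lymphoid markers 0 and 1, erythroid markers 8 and 0, cholangiocyte markers 5 and 0, and granulocyte markers 0 and 6. The part of these cell types in the rise of the TCA cycle members was not tested.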

How the data were processed

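Total liver RNA was extracted with Trizol, cleaned on a column and hybridised as biotin-labelled cRNA, as the labels' protocols state. The authors deposited 1 log2 expression value per probe set and array. The submitters' processing notes name affy and RMA, without versions, and RMA corrects background, normalizes quantiles and summarises probes. The deposited table holds 22690 probe sets, 64 of them array controls, with 0 missing values. It has no detection calls, so whether a probe set read above background is not known. The number of arrays limits the precision. Quantile normalization hides a change in total RNA.

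Groups were taken from the sample titles. Gene names came from GEO's platform annotation (20380 with 1 gene, 691 with several, 1555 with none), and symbols were checked against RefSeq GRCm38.p6, where 20351 matched and 0 changed. The 3 transgenic were set against the 3 wild-type arrays in limma 3.58.1 in R 4.3.3 (lmFit and eBayes, no covariates, two-sided), Benjamini-Hochberg adjusted over 22626 probe sets. The brightest probe set of a gene is the one with the highest mean over all 6 arrays. Within-array differences were tested with exact permutation tests in scipy 1.17.1. The script was tested on simulated data.

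The members and lists were chosen with earlier results of these data known. Besides all members, the text names up to 4 genes of each of 6 pathway lists with the largest change past the threshold by the brightest probe set, the 5 nearest profiles to Idh3a, Tfeb, Ppargc1a, Esrra, Xist and Eif2s3y. Sucla2, a partner in a planned comparison, is also named. List genes not measured by a probe set of 1 gene were not analysed here.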

Additional observations from a re-analysis of the deposited data

How the results depend on the processing

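The 17 members were retested under 16 alternatives, and 0 members fell in any of them. The number that rose, 14, was 8 of 9 genes both with the brightest probe set of each gene and with all probe sets of each gene averaged, where fewer features were tested, 13 of 15 without probe sets of suffix _x_at or _s_at, 15 without the 40% dimmest probe sets, with trend and robust options and with array weights, 14 with median centring, 13 with cyclic loess, and 17 with scaling to the bacterial controls. Leaving out each array in turn gave 13 to 15. The share of all features that rose was 18.1% as deposited, 19.9% with the brightest probe set per gene and 18.1% with the mean. It was 17.1% without suffixes _x_at and _s_at, 29.8% without the 40% dimmest probe sets, and 19.4% with trend and robust options or array weights. Median centring and cyclic loess both gave 15.6%, scaling to the bacterial controls 57.3%, and an array left out 13.3% to 17.1%. Of the single values of members under the alternatives, 240 kept direction and side of the threshold, 9 gained and 5 lost a call, all 5 losses being Idh3b 1418885_a_at and the gains Idh3b 1418886_s_at, Suclg1 and Dlst 1431011_at. The median difference of members, 0.58, was 0.49 with cyclic loess, 0.95 with scaling to the bacterial controls and 0.65 with array weights, and 0.49 to 0.70 with an array left out; the cause was not tested beyond the 0.37 that the scaling adds by construction. Over all features the count past the threshold, 8006, was 4990 of 12393 genes with the brightest probe set and 4765 with the mean. Under bacterial scaling it was 13908, with 12963 higher and 945 lower, so that 93.2% of calls were upward, compared with 51.0% as deposited. Within the array, averaging probe sets moved the shift of Dlst minus Ogdh to -0.35 and that of Mdh2 minus Mdh1 to 0.68 (0.42 by the brightest probe sets). The shift of Suclg1 minus Sucla2, -0.01, changed sign, with a range of -0.080 to 0.081 over arrays left out (0.053 with transgenic array 3 left out and 0.081 with wild-type array 2 left out). The replicate numbers of the titles did not pair the arrays (correlation of deviations -0.10, -0.02 and 0.05 for replicates 1, 2 and 3, and not every array correlated best with its own number), and with the replicate block 14 members rose, at a median difference of 0.58, while 6757 probe sets passed; of the named genes, Sdhd (adjusted p = 0.0574) and Pdk1 (0.0695) lost their calls with the block. Of the values of other named genes under the alternatives, 490 kept direction and side of the threshold and 20 lost the call, among them Mdh1 with the mean of its probe sets (adjusted p = 0.0544). An alternative for the within-array differences, the brightest probe set of each gene, was the one reported.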
